A study of Mus musculus with 8 samples.

Results

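The genes described here are the mouse genes whose symbol begins with Zfp and a number, the zinc finger protein genes that carry no name of their own. They were taken as the probes of the unnormalized array table whose symbol has that form, without Zfp36, Zfp36l1 and Zfp36l2, which bind RNA and belong to another family, and which were detected (detection p-value under 0.05) on the 2 arrays of 1 group or more. Of 278 such genes on the array (376 probes), 158 (193 probes) were kept, among 8183 genes tested in all, and 120 were not detected in this sense. The detection p-value ranks a probe's signal among the array's own negative control beads. The members were thus chosen on signal, so that a gene may have passed only through the group in which it was bright. Of the 158 genes, 130 were detected on all 8 arrays and 28 were not.

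The cells were MLP-29, a line of mouse liver progenitor cells. They were starved gradually over 1 week and then, with 2% bovine serum present, given recombinant HGF, the hepatocyte growth factor that activates the Met receptor, for 1, 6 or 24 h, or control medium. The labels give 1 control group, with no time of its own, and cultures of a time course were harvested at one moment. The 4 groups had 2 arrays apiece, a and b, from a time course performed again, and everything comes from this single line. A p-value therefore measures the spread between these repeats of 1 line.

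Most proteins of this kind carry a row of zinc fingers that grip DNA, each finger reading a few bases. In the largest mammalian branch the fingers follow a KRAB domain, which binds the corepressor Trim28. Trim28 in turn brings the methyltransferase Setdb1 and other silencing proteins to the bound site, and many targets are transposable elements. KRAB zinc finger genes lie in clusters of close relatives on a few chromosomes, and an array probe may pick up transcripts of a near-identical neighbour. How far that occurred was not tested.

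Per array, 11569 to 11893 of 25697 probes were detected (45.0% to 46.3%), and the median raw signal was 113 to 138 intensity units. Across genes, replicate arrays gave correlations of 0.990 to 0.993. Of 12 markers of liver progenitor and biliary cells, 6 were measured (Sox9, Krt7, Krt19, Krt8, Krt18 and Cd24a), all of them on all 8 arrays. Of the markers of other cells, Hnf4a was measured of 6 hepatocyte markers, Cd14 of 5 haematopoietic ones, and 0 of 4 endothelial and 0 of 5 stellate ones. The number of Zfp genes detected per array was 154 and 156 in control cells, 148 and 145 after 1 h, 152 and 150 after 6 h, and 154 and 153 after 24 h.

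After 1 h of HGF, the Zfp genes that changed were nearly all lower. In limma's fit over all 8 arrays, with Benjamini-Hochberg adjusted p under 0.05, 15 of the 158 were lower than in control cells (9.49%) and 1 was higher (0.633%), while of all 8183 genes 2.16% were lower and 2.63% higher. By at least 2-fold, 7 Zfp genes were lower (4.43%, against 0.733% of all genes) and 0 were higher (1.49% of all genes; at an unadjusted p under 0.05 and any size, 10 Zfp genes were higher). The median log2 change of the 158 was -0.18, against -0.05 over all genes, and the changes ran from -1.55 to 1.22. With the replicate letter as a block, 33 Zfp genes were lower and 4 higher (20.9% and 2.53%, against 4.46% and 4.58% of all genes). Because members were chosen on detection, these counts describe the genes that passed and do not support a claim about the family.

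Genes detected on all 8 arrays could not have passed through 1 group alone. Of those 130, 9 were lower after 1 h (6.92%, against 2.02% of the 7182 genes of all kinds detected on all arrays) and 1 was higher (0.769%, against 2.49%), with a median log2 change of -0.16. Of the 28 others, 6 were lower (21.4%, against 3.2% of the 1001 such genes of all kinds) and 0 higher (3.6% of the 1001). Zfp genes were mostly dim: by quartile of mean signal over all genes, from dim to bright, 70, 54, 28 and 6 of them were found. In those quartiles 8, 5, 2 and 0 Zfp genes were lower at 1 h (11.4%, 9.26%, 7.14% and 0%), against 2.38%, 3.06%, 1.54% and 1.13% of the other genes. The brightest quartile holds 6 Zfp genes, too few for a share.

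**Figure D1:**
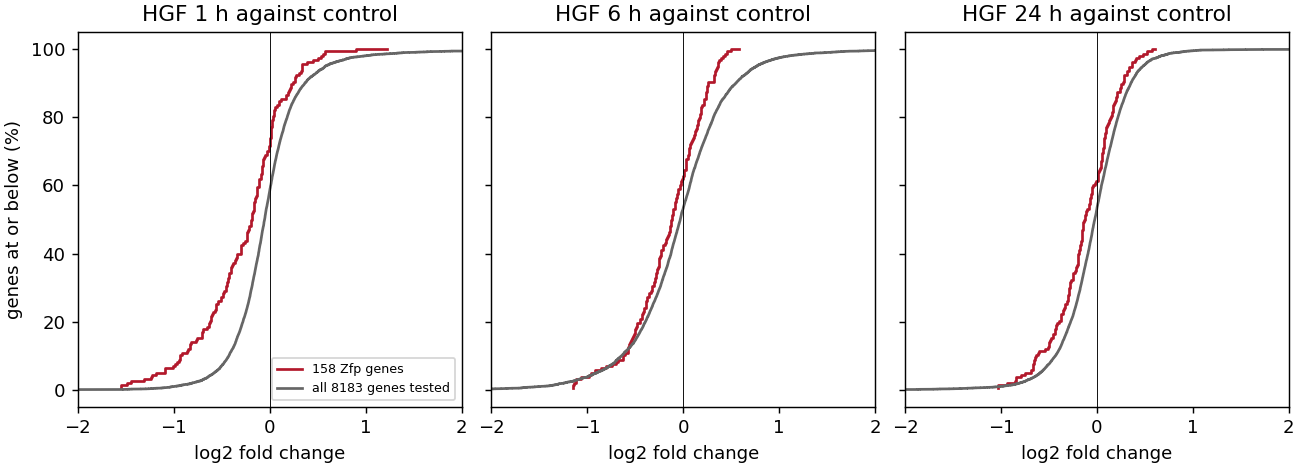
Cumulative distribution of log2 change against control for the 158 Zfp genes and for all 8183 genes tested, 1 panel for each HGF time, x axis in log2 units and y axis in share of genes. The Zfp curve lies to the left of the curve of all genes over most of its range at 1 h, with medians of -0.18 and -0.05.

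Levels below are log2 values of background-corrected, normalized signal with an offset of 16, so that the change of a dim gene is understated, and changes are log2 fold changes against control ± SE from the fit, with 2 arrays a group. The steepest fall at 1 h was that of Zfp235, a KRAB zinc finger gene, at 6.06 and 5.60 after HGF, against 7.79 and 6.96 in control cells (-1.55 ± 0.33, adjusted p = 0.0417). Zfp235 is 1 of the 28 genes not detected on all 8 arrays. Among the 130 detected on all 8, the steepest fall was that of Zfp60. Zfp60, known from differentiating mouse muscle cells, had 7.68 and 7.43 after 1 h, against 9.51 and 8.56 in control cells (-1.48 ± 0.33, adjusted p = 0.0474). For both genes the HGF arrays lay below both control arrays, and the control arrays differed from each other by more than the HGF arrays did. Zfp658, whose human counterpart binds elements that respond to zinc, had 5.71 and 6.00, against 7.49 and 7.12 in control cells (-1.45 ± 0.28, adjusted p = 0.0296).

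Zfp94 gave a closer pair in each group, at 6.72 and 6.61 after 1 h and 8.06 and 7.88 in control cells (-1.31 ± 0.19, adjusted p = 0.0103). Zfp280b, related to the insulator protein Suppressor of Hairy-wing of Drosophila, had 7.52 and 7.22 after 1 h, against 8.37 and 8.39 in control cells (-1.01 ± 0.14, adjusted p = 0.00759). Zfp12, a KRAB zinc finger gene, stood at 9.69 and 9.58 after 1 h, against 10.50 and 10.65 in control cells (-0.93 ± 0.12, adjusted p = 0.00714). In each of these the gap between groups was several times the gap between arrays of a group.

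Of the 15 genes, 3 were not detected on either array at 1 h, so that their fall is a lower bound, set against the lowest detected signal of the same arrays or the gene's own, whichever was higher. Zfp61 was at least 1.85-fold lower (adjusted p = 0.0109), Zfp846 at least 1.69-fold lower (adjusted p = 0.0389) and Zfp418 at least 1.26-fold lower (adjusted p = 0.0345). Human ZNF418 is a KRAB repressor. The other genes called lower were Zfp128, whose product in the mouse binds Smad proteins and damps BMP signals, Zfp551, Zfp46, Zfp30, Zfp606 and Zfp90, which in mice binds the neuronal silencer REST. Their changes ran from -0.96 ± 0.20 for Zfp128 to -0.54 ± 0.12 for Zfp90.

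In all 15 genes both HGF arrays lay below both control arrays, as they did in 73 of the 158 Zfp genes (46.2%) and in 29.8% of all genes. The reverse held for 20 Zfp genes (12.7%) and for 19.2% of all genes. Inside each repeat, with the letters taken to pair the arrays, the median change of the 158 Zfp genes was below 0. It was -0.15 in repeat a and -0.26 in repeat b, against -0.04 and -0.05 over all genes. Of the 158, 87 were lower in both repeats (55.1%, against 38.6% of all genes). These values come from the same arrays and from members chosen on detection, some of them through the control arrays, so they are a description and no further support. The calls rested on few arrays. A fit that leaves out 1 array leaves its group with 1, and the counts that follow are of Zfp genes alone. They cannot tell weak Zfp calls from a loss of calls among genes of all kinds. With HGF 1 h replicate b left out, 0 Zfp genes were called lower (36 at an unadjusted p under 0.05, limma), with control replicate a left out 1, with HGF 1 h replicate a left out 6, with control replicate b left out 8, and with either HGF 24 h array left out 9. Of the 16 genes called at 1 h, 0 kept the call in each of the 8 fits that leave out 1 array (10 were higher and 46 lower at an unadjusted p under 0.05 with all arrays in). Zfp12 kept it in 7 and Zfp280b in 6, while Zfp606, Zfp90 and Zfp655 kept it in 0.

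The 1 gene called higher at 1 h was Zfp655, known in humans as a Krüppel-like protein that binds the signalling protein Vav. It had 11.43 and 11.27 after 1 h, against 10.70 and 10.85 in control cells (0.58 ± 0.12, adjusted p = 0.0393), and under median scaling the change was 0.46 and was no longer called (adjusted p = 0.266). Zfp948 had a larger difference with a wider spread, at 8.73 and 8.20 after 1 h, against 7.39 and 7.10 in control cells (1.22 ± 0.29, adjusted p = 0.0580, and 0.00322 with the block). Zfp593, whose yeast relative takes part in making the large ribosomal subunit, had 7.61 and 7.43, against 6.53 and 6.72 in control cells (0.90, adjusted p = 0.0985, and 0.0399 with the block). In both, the HGF arrays lay above both control arrays.

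**Figure D2:**
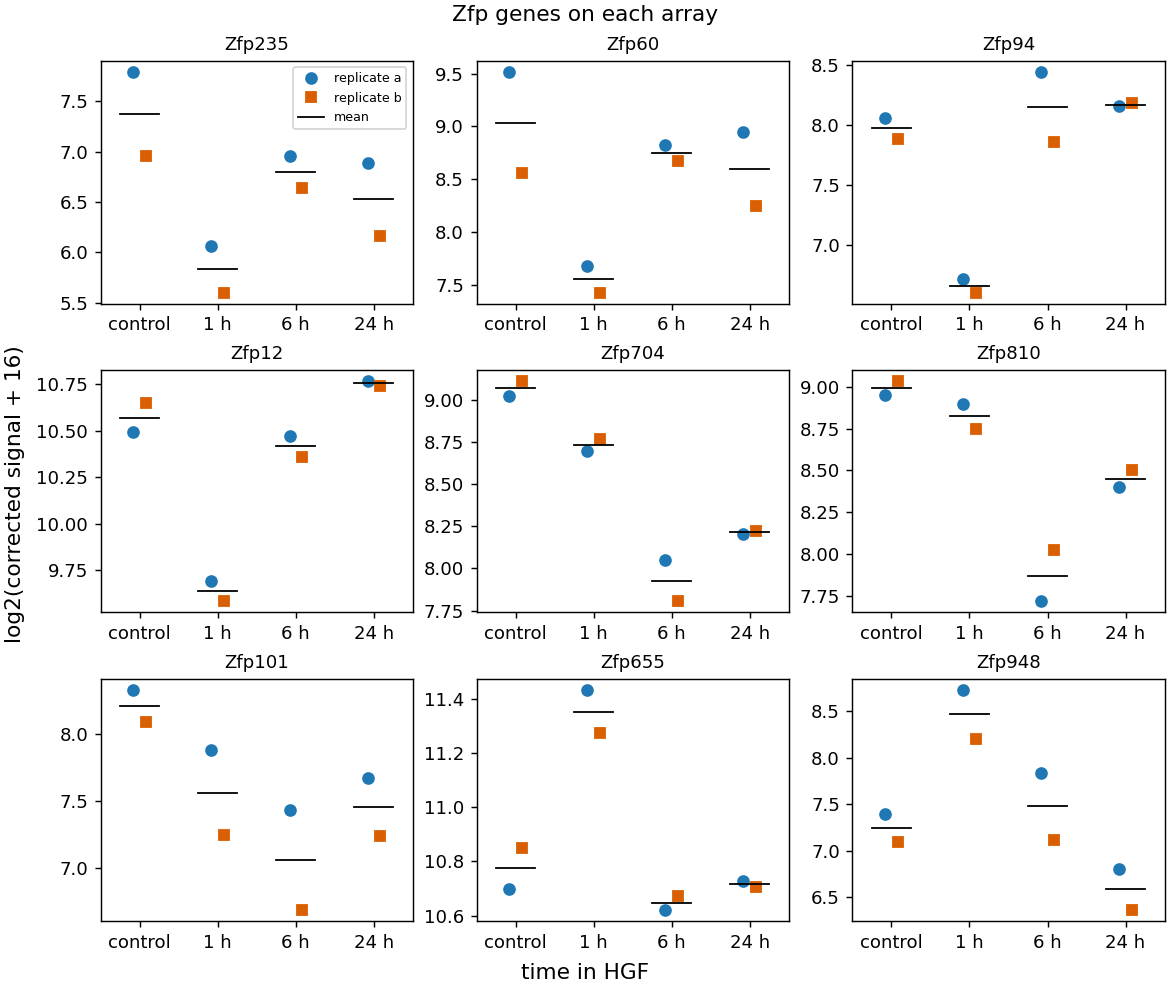
Log2 level of 9 Zfp genes on each array, 1 panel per gene, in the order control, HGF 1, 6 and 24 h, with points for repeats a and b and a bar at their mean. Zfp235, Zfp60, Zfp94 and Zfp12 are lowest at 1 h, Zfp704, Zfp810 and Zfp101 are lowest at 6 h, and Zfp655 and Zfp948 are highest at 1 h.

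Of the 158 genes, 8 were detected on no array of 1 group and on both arrays of another (5.06%, against 6.21% of all genes tested). Detection on neither 1 h array and on both control arrays held for 6 of the 158 (3.8%, against 0.819% of all genes), and the opposite for 0 (1.08% of all genes). Such genes became members through the groups in which they were bright, so that these numbers are a description and support no direction. Besides Zfp61, Zfp846 and Zfp418, the genes undetected at 1 h were Zfp13, Zfp689 and Zfp763, and Zfp599, which was detected on both arrays of another group but not on both control arrays. The bounds of Zfp13, Zfp599, Zfp689 and Zfp763 were at least 1.13-fold, 1.05-fold, 1.46-fold and 1.92-fold lower, none of them called without the block. Zfp763 was called with it (adjusted p = 0.00551). The rule placed some of these genes near its limit: the probes just inside were those of Zfp13 (0.0476) and Zfp418 (0.0439) through the control arrays and of Zfp513 (0.0451) through the 24 h arrays. Zfp513 has another detected probe. Just outside were probes of Zfp212 (0.0526, 24 h), Zfp706 (0.0551, 1 h) and Zfp763 (0.0576, control arrays). Zfp212 and Zfp763 are members through other probes.

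Chromosome 7 holds many zinc finger clusters in the mouse. By RefSeq (GRCm38.p6), it carried 40 of the 158 measured Zfp genes (25.3%, against 7.81% of all genes tested) and 10 of the 15 called lower at 1 h, with a median log2 change of its 40 genes of -0.41. Chromosome 17 carried 18 Zfp genes, of which 0 were called lower at 1 h and 5 at 6 h, with medians of -0.42 and -0.29. Chromosome 13 carried 11, with a median of -0.41 at 1 h and 0 called at either time. A median as low as that of chromosome 7 thus stood on chromosomes without a call. Next to each other on chromosome 7, with no other measured Zfp gene between them, Zfp418, Zfp551, Zfp606 and Zfp128 were all called lower at 1 h, as were the neighbours Zfp61 and Zfp94. Calls among genes of other kinds, by chromosome or as neighbours, are not set beside these, so whether calls gather in Zfp clusters was not tested.

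**Figure D3:**
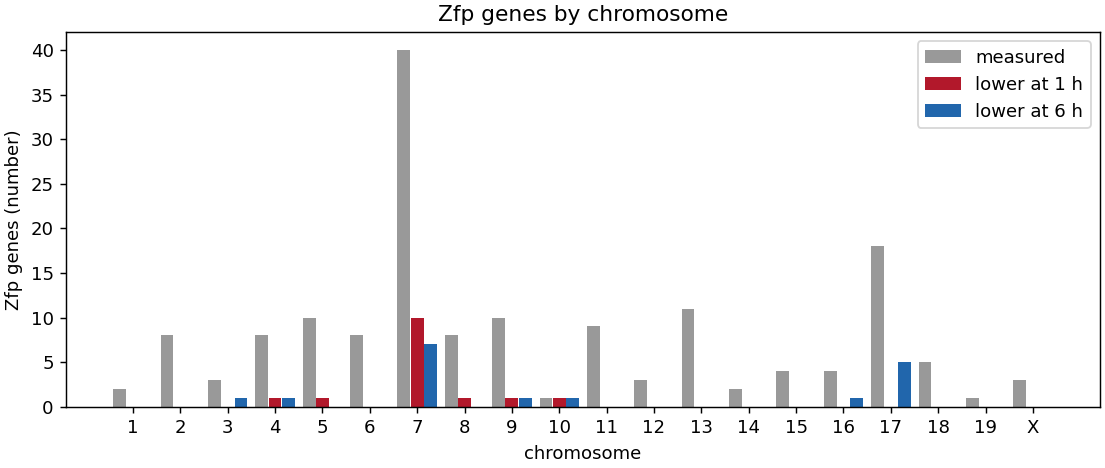
Number of measured Zfp genes on each chromosome, with the numbers called lower at 1 h and at 6 h beside it (x axis, chromosome; y axis, genes). Chromosome 7 holds 40 genes, of which 10 were called at 1 h and 7 at 6 h, and chromosome 17 holds 18, of which 0 were called at 1 h and 5 at 6 h.

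Promoter windows from RefSeq (GRCm38.p6), 250 bases before to 50 after the start of the gene, were matched by gene identifier for 130 of the 158 Zfp genes. Among words of 6 bases, 2 of any kind and 4 more, read on both strands, ACTACANNTCCC stood in the largest number of Zfp windows, 19 of 130 (14.6%). It is part of an element known to be bound by ZNF143 in human cells. It stood in 4.85% of the windows of all genes tested and in 1.98% of all 27025 windows, and since it was picked for its number in Zfp windows, its excess there is a description. Among genes with a window, it was found in 3 of 14 called lower at 1 h (21.4%: Zfp60, Zfp606 and Zfp128), in 1 of 14 called lower at 6 h (7.14%: Zfp420) and in 15 of 105 not called lower (14.3%). The 4 windows of called genes are shown 5′ to 3′ on the strand of the gene, which is the plus strand for each, with the motif in capitals. In Zfp128 the motif lies on the opposite strand and is read there as its reverse complement. The windows are chr7:27731159-27731458 for Zfp60, chr7:12478055-12478354 for Zfp606, chr7:12880928-12881227 for Zfp128 and chr7:29859762-29860061 for Zfp420.
Zfp60: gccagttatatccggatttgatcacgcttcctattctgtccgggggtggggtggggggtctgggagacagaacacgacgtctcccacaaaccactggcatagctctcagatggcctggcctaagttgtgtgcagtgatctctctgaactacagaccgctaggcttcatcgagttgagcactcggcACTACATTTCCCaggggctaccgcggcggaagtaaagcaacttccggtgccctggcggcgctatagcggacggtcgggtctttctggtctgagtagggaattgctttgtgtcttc
Zfp606: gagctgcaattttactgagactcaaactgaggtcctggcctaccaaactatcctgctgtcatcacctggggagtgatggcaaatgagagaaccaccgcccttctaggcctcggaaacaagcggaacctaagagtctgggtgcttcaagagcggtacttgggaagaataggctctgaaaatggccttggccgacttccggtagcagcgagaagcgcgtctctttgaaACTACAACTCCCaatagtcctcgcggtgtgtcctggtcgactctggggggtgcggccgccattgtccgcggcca
Zfp128: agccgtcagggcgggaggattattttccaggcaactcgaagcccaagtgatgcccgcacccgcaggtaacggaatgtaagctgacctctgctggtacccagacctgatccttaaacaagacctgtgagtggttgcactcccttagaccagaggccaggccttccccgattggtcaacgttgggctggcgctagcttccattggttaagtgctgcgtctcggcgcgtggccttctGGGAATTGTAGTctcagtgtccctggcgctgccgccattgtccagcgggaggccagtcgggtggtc
Zfp420: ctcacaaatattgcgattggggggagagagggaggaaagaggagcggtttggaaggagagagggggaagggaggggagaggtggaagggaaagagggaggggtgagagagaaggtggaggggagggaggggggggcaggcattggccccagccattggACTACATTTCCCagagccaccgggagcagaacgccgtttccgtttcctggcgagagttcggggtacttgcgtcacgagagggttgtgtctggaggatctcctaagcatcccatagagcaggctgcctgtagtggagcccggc
A match says that these letters stand in the window and no more.

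Other motifs were near or below their share in tested genes. TGANTCA, the AP-1 site, stood in 6 of the 130 Zfp windows (4.62%, against 5.22% of windows of all tested genes), CACGTG, the E-box, in 11 (8.46%, against 10.5%), TATAAA in 7 (5.38%, against 7.14%) and the GC box GGGCGG in 63 (48.5%, against 65.9%). These windows held a median of 56.5% G and C and 16.5 CpG pairs for Zfp genes, against 61.0% and 21 for all genes tested. No test was made of any of these shares.

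After 6 h, the Zfp genes that changed were again on the lower side, but so were many other genes. Of the 158, 17 were lower (10.8%, against 12.1% of all genes) and 0 were higher (9.28% of all genes; 6 Zfp genes were higher at an unadjusted p under 0.05, limma). The share lower was near that of all genes, and the share higher was below it. With the block, 24 were lower and 4 higher (15.2% and 2.53%, against 16.3% and 12.5% of all genes), the 4 being Zfp386 (0.58), Zfp428 (0.50), Zfp449 (0.41) and Zfp597 (0.35). Of the 130 genes detected on all 8 arrays, 13 were lower (10.0%, against 12.2%) and 0 higher (9.47%), and of the 28 others 4 were lower (14.3%, against 11.9%) and 0 higher (7.89%). Both 6 h arrays lay below both control arrays in 60 Zfp genes (38%, against 33.4%) and above them in 23 (14.6%, against 28.3%). The median change of the 158 was -0.12, against -0.03 over all genes, and it was -0.02 within repeat a and -0.22 within repeat b.

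Zfp704, induced by glucocorticoids in mouse cells and known there as Gig1, had 8.05 and 7.80 after 6 h, against 9.02 and 9.11 in control cells (-1.14 ± 0.13, adjusted p = 0.00176). A dimmer probe of the gene gave -0.65 and was not called (adjusted p = 0.204). Zfp810 had 7.72 and 8.02, against 8.95 and 9.04 in control cells (-1.12 ± 0.14, adjusted p = 0.00259). At 1 h its arrays read 8.90 and 8.75 (-0.17, not called, adjusted p = 0.569). Zfp61 was again not detected on either HGF array and was at least 1.75-fold lower (adjusted p = 0.00783). These 3 genes kept the call in each of the 8 fits that leave out 1 array.

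Genes on chromosome 17 made up 5 of the 17. They were Zfp101 (-1.15 ± 0.30, adjusted p = 0.0320), Zfp760 (-1.12 ± 0.29, adjusted p = 0.0333), Zfp758 (-0.97 ± 0.27, adjusted p = 0.0390), Zfp160 (-0.98 ± 0.20, adjusted p = 0.0134) and Zfp871 (-0.85 ± 0.16, adjusted p = 0.00959). Zfp101 had 7.43 and 6.69 after 6 h, against 8.33 and 8.09 in control cells, a wide pair at 6 h. Zfp871 had 8.13 and 7.91, against 8.90 and 8.85. In all 5 genes both 6 h arrays were below both control arrays, and at 1 h their changes, from -0.82 to -0.51, were not called without the block (4 of the 5 were called with it, Zfp758 not).

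The other genes called lower at 6 h were Zfp654 (-0.75, with both of its probes called), Zfp30 (-0.70), Zfp954 (-0.61), Zfp420 (-0.58), Zfp628 (-0.51), Zfp629 (-0.51), Zfp280b (-0.50), Zfp362 (-0.41) and Zfp619, undetected at 6 h and at least 1.37-fold lower (adjusted p = 0.0480). Human ZNF420 is known as Apak, an inhibitor of p53. Zfp61, Zfp30 and Zfp280b were called at both 1 and 6 h, in comparisons that share their control arrays. Leaving out control replicate a gave 5 Zfp genes called lower at 6 h, HGF 6 h replicate b 6, control replicate b 8 and HGF 6 h replicate a 11.

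**Figure D4:**
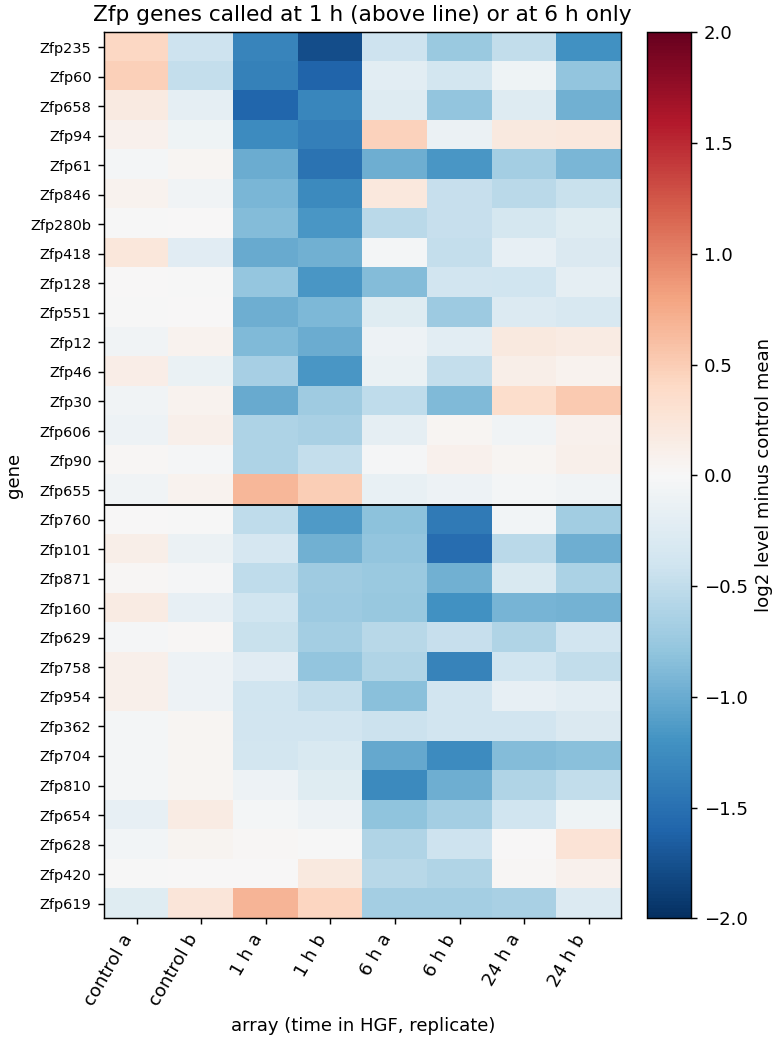
Heat map of the 30 Zfp genes called at 1 h or 6 h, rows as genes and columns as single arrays. The columns are repeats a and b of control, then of HGF 1, 6 and 24 h. Colour gives the log2 level on each array minus the mean of the control arrays, from lower (blue) to higher (red). The 16 rows above the line were called at 1 h and the 14 below it at 6 h only.

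After 24 h, limma called 0 of 158 Zfp genes in either direction, and 0 of all 8183 genes (4 Zfp genes were higher and 20 lower at an unadjusted p under 0.05). With the block 10 were lower (6.33%, against 3.39% of all genes) and 0 higher (1.99%). The smallest adjusted p values were those of Zfp704 (-0.85 ± 0.13, adjusted p = 0.0812, and 0.0217 with the block), Zfp160 (-0.94 ± 0.20, adjusted p = 0.0947, and 0.0207 with the block) and Zfp280c (-0.67 ± 0.15, adjusted p = 0.0947, and 0.0448 with the block), with Zfp367 level with them (-0.67, adjusted p = 0.0947, and 0.0510 with the block). Zfp704 stood at 8.20 and 8.22 after 24 h, against 9.02 and 9.11 in control cells. Zfp30, in contrast, had 9.49 and 9.67, against 9.07 and 9.22, above both control arrays (0.44, not called, adjusted p = 0.221). The median change of the 158 was -0.12, against -0.02 over all genes.

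**Figure D5:**
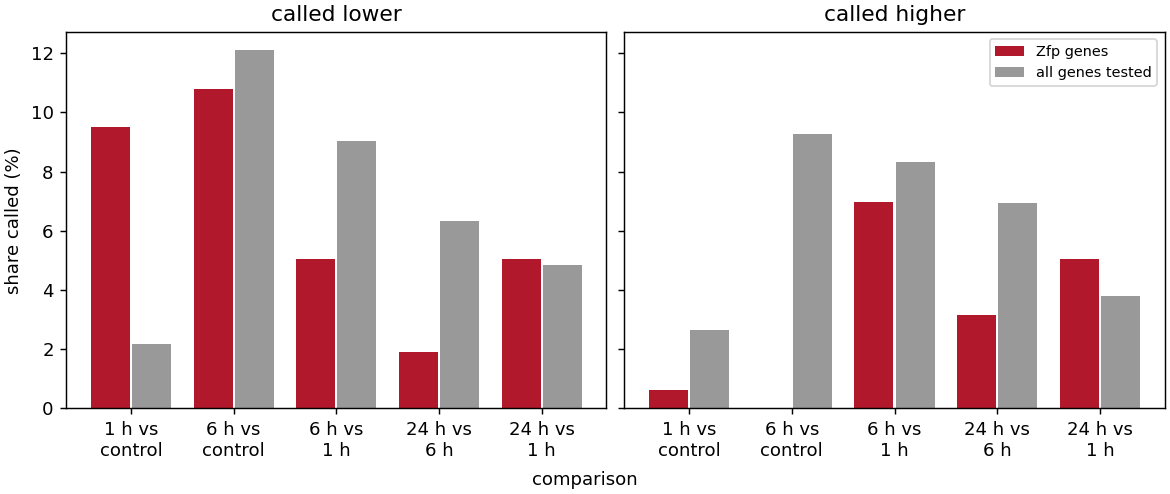
Share of genes called lower and higher at adjusted p under 0.05, for the 158 Zfp genes and for all 8183 genes (y axis, percent of genes). The comparisons are 1 h and 6 h against control, 6 h against 1 h, 24 h against 6 h and 24 h against 1 h. At 1 h against control, 9.49% of Zfp genes and 2.16% of all genes were lower, and at 6 h against control 10.8% and 12.1%.

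Differences between the HGF times were tested directly, in 3 comparisons that share arrays. At 6 h against 1 h, 11 Zfp genes were higher and 8 lower (6.96% and 5.06%, against 8.33% and 9.04% of all genes). With the block there were 22 and 11 (11.5% and 12.6% of all genes). Zfp94 was 1.48 ± 0.19 higher at 6 h, at 8.44 and 7.86, against 6.72 and 6.61 at 1 h (adjusted p = 0.00298), and Zfp60 was 1.20 ± 0.33 higher, at 8.83 and 8.68, against 7.68 and 7.43 at 1 h (adjusted p = 0.0450). Zfp846, undetected at 1 h, was at least 1.55-fold higher (adjusted p = 0.0283), and Zfp82 was 0.82 ± 0.18 higher (adjusted p = 0.0210). Zfp619, undetected at 6 h, was at least 2.01-fold lower at 6 h (adjusted p = 0.00727). Zfp810 (-0.95 ± 0.14), Zfp704 (-0.80 ± 0.13) and Zfp655 (-0.71 ± 0.12) were also lower at 6 h. The numbers higher and lower were 2 and 6 without HGF 6 h replicate a, 8 and 4 without HGF 6 h replicate b, and 5 and 4 without either HGF 1 h array.

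At 24 h against 6 h, 5 Zfp genes were higher and 3 lower (3.16% and 1.9%, against 6.94% and 6.34% of all genes). With the block 7 and 9 were called (9.7% and 9.61% of all genes). The higher genes included Zfp30 (1.13 ± 0.17, adjusted p = 0.00707), Zfp628 (0.66 ± 0.14), Zfp420 (0.63 ± 0.12) and Zfp598 (0.62 ± 0.15), whose human counterpart is a ubiquitin ligase that marks collided ribosomes. Zfp367 was the steepest fall, at 7.19 and 7.29 at 24 h, against 8.34 and 8.23 at 6 h (-1.04 ± 0.15, adjusted p = 0.00590), followed by Zfp280c (-0.85 ± 0.15) and Zfp597 (-0.52 ± 0.13). Zfp367 was called in all 8 fits that leave out 1 array. The numbers higher and lower were 0 and 1 without HGF 24 h replicate b (10 and 6 at an unadjusted p under 0.05, limma), 2 and 2 without HGF 24 h replicate a, 1 and 2 without HGF 6 h replicate a, and 3 and 3 without HGF 6 h replicate b.

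At 24 h against 1 h, 8 Zfp genes were higher and 8 lower (5.06% each, against 3.79% and 4.85% of all genes), and with the block 16 and 8 (6.46% and 7.75% of all genes). The higher genes included Zfp94 (1.51 ± 0.19, adjusted p = 0.00551), Zfp30 (1.29 ± 0.17, adjusted p = 0.00669), Zfp12 (1.11 ± 0.12, adjusted p = 0.00285) and Zfp46 (1.01 ± 0.20, adjusted p = 0.0245). Zfp12 had 10.77 and 10.74 at 24 h, against 9.69 and 9.58 at 1 h, the groups lying far apart. The lower genes included Zfp948 (-1.88 ± 0.29, adjusted p = 0.0102), at 6.81 and 6.36 at 24 h and 8.73 and 8.20 at 1 h, Zfp593 (-1.18 ± 0.25), Zfp619 (-1.02 ± 0.20) and Zfp263 (-0.76 ± 0.17). The numbers higher and lower were 3 and 0 without HGF 24 h replicate b (18 and 10 at an unadjusted p under 0.05, limma), 3 and 1 without HGF 24 h replicate a, 6 and 0 without HGF 1 h replicate a, 3 and 3 without HGF 1 h replicate b, and 8 and 5 without either control array. Neighbours called together in this comparison were Zfp263 and Zfp597 on chromosome 16, both lower, and Zfp157 and Zfp12 on chromosome 5, both higher (0.88 and 1.11).

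The F test over the 3 times called 31 Zfp genes as changed at some time (19.6%, against 23.6% of all genes), and 53 with the block (33.5%, against 34.6%). Few of the calls could be checked on another probe of the same gene. Of the 16 genes called at 1 h, 1 had another detected probe, and of the 17 called at 6 h, 2 had one. For Zfp606 at 1 h, the other probe gave -0.97, against -0.63 for the brighter one. With every probe fitted, neither was called (limma adjusted p = 0.0780 and 0.0562). For Zfp367, at 24 h against 6 h, the other probe gave -0.27 (adjusted p = 0.369), a smaller fall than the -1.04 of the brighter one. Over all 30 Zfp genes with 2 or more detected probes, 16 had changes of the same sign at 1 h, 23 at 6 h and 19 at 24 h. Signs differed in 14, 7 and 11. While 0 had probes called in opposite directions, only Zfp654, at 6 h, had more than 1 probe called against control. The 0 therefore says little about how well probes match.

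Zfp genes with a known role were gathered in 3 lists of 45 genes, with earlier results of these data known. Some called genes whose role is named above are outside these lists. Of 23 measured, 0 were called against control at 1, 6 or 24 h without the block (4, 3 and 2 at an unadjusted p under 0.05, limma). Of all genes, 2.63% were higher and 2.16% lower at 1 h, and 9.28% and 12.1% at 6 h. Between times, Zfp593 was called lower at 24 h against 1 h (-1.18) and Zfp598 higher at 24 h against 6 h (0.62). With the block, 2 of the 23 were called at 1 h, Zfp593 as given above and Zfp385a (-0.94, adjusted p = 0.0492, against 0.119 without it), 1 at 6 h and 0 at 24 h. Their log2 changes ran from -0.94 to 0.90 at 1 h, from -0.92 to 0.36 at 6 h and from -0.63 to 0.41 at 24 h. Of the 6 genes for the silencing of imprinted genes and retroelements, 1 was measured: Zfp809, which recognizes the primer site of retroviruses in mouse embryonic cells, had changes of 0.24, -0.19 and 0.14 at 1, 6 and 24 h. Of 10 genes that act on RNA, ribosomes or the spindle, 7 were measured, among them Zfp207, a spindle protein, with changes of -0.07 at 1 h and 0.06 at 6 h, and Zfp385a, which binds p53 in the mouse. Zfp385a had 5.80 and 6.50 at 6 h, against 7.22 and 6.92 in control cells (-0.92, adjusted p = 0.0561, and 0.0242 with the block). Of 29 regulators of transcription and signalling, 15 were measured, with median changes of -0.03, 0.06 and 0.08. They include Zfp148, a GC-box binder, at -0.06 and 0.11 at 1 and 6 h, and Zfp281, a factor of embryonic stem cells, at 0.05 and -0.06. With median scaling, the 6 h values of Zfp207 and Zfp148 became -0.10 and -0.07, and the 1 h value of Zfp281 -0.08, so that none of these has a settled sign.

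The corepressor machinery that KRAB zinc fingers use was measured for 28 of 44 listed genes. At 1 h 0 of the 28 were called without the block (2.63% of all genes were higher and 2.16% lower). With the block 2 were lower (4.46% of all genes): Trim28 itself, at 12.64 and 12.61, against 13.28 and 13.05 in control cells (-0.53 ± 0.13, adjusted p = 0.0596, and 0.0333 with the block), and Atf7ip, a partner of Setdb1, at 8.89 and 8.91, against 9.42 and 9.44 (-0.52 ± 0.12, adjusted p = 0.0596, and 0.0433 with the block). At 6 h 1 of the 28 was higher and 2 were lower (9.28% and 12.1% of all genes). Atf7ip had 8.32 and 8.08, against 9.42 and 9.44 in control cells (-1.23 ± 0.12, adjusted p = 0.00144). Ehmt2, a histone methyltransferase, was -0.77 ± 0.15 lower (adjusted p = 0.0126), and Rbbp7, a histone-binding subunit of several chromatin complexes, was 0.84 ± 0.14 higher (adjusted p = 0.00644). With the block, Chd4, a chromatin remodeller, was also lower (-0.52, adjusted p = 0.0423) and Smarcad1, another remodeller, higher (0.39, adjusted p = 0.0400). That made 2 higher and 3 lower (12.5% and 16.3% of all genes). At 24 h 0 were called without the block, of these or of all genes. With it 2 were higher (1.99% of all genes): Rbbp7 (0.75, adjusted p = 0.0812, and 0.0207 with the block) and Ehmt1, a methyltransferase that pairs with Ehmt2 (0.56, adjusted p = 0.113, and 0.0414 with the block).

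Other zinc finger genes were measured for comparison. Of all genes, 2.16% were lower and 2.63% higher at 1 h, and 12.1% and 9.28% at 6 h. With the block these shares were 4.46% and 4.58% at 1 h, 16.3% and 12.5% at 6 h, and 3.39% and 1.99% at 24 h. Of 23 measured Zbtb genes, which join a BTB domain to zinc fingers, 2 were lower and 1 higher at 1 h: Zbtb45 (-1.05 ± 0.13), Zbtb8os (-0.81 ± 0.16), which is named for lying opposite a Zbtb gene and has no such domains itself, and Zbtb21 (0.72 ± 0.14). At 6 h 1 was lower, Zbtb8os (-0.69 ± 0.16), and 1 was higher, Zbtb38 (1.23 ± 0.30). With the block, Zbtb14 (-0.65, adjusted p = 0.0278) and Zbtb8a (-0.75, adjusted p = 0.0183) were also lower at 1 h, which made 4, and Zbtb8os was lower at 24 h (-0.69, adjusted p = 0.0431). Of 9 measured Zkscan and Zscan genes, which carry a SCAN domain, Zkscan14 was the 1 called at 1 h, at 8.23 and 7.69, against 10.08 and 10.06 in control cells (-2.11 ± 0.26, adjusted p = 0.00603). At 6 h Zkscan14 (-0.94 ± 0.26) and Zscan26 (-0.53 ± 0.14) were lower. With the block, Zkscan17 was also lower at 1 h (-0.51, adjusted p = 0.0368), Zkscan17 (-0.38), Zscan2 (-0.89) and Zscan21 (-0.50) were also lower at 6 h, which made 5, and Zscan21 was lower at 24 h (-0.59, adjusted p = 0.0480). The median change of the 9 was -0.45 at 1 h and -0.50 at 6 h, while that of the Zbtb genes was -0.13 and -0.12. The difference between these families and the Zfp genes was not tested.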

How the data were processed

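Total RNA of 8 MLP-29 cultures was hybridized to Illumina Mouse8 V2 arrays, which read 1 colour. The authors deposited a raw summary intensity and a detection p-value for each of 25697 probes, per the file headers, and a second table of normalized intensity on a linear scale. The submitters' processing notes name GenomeStudio 1.9.0, and how the second table was normalized is not stated in the labels or headers. The number of arrays limits the precision.

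Gene symbols came from the platform annotation, which gave 23978 probes 1 symbol. All 158 Zfp symbols matched RefSeq by gene identifier. In limma 3.58.1 (R 4.3.3), raw intensity was background corrected by normexp using the detection p (offset 16), put on the log2 scale and quantile normalized. The brightest probe on average stood for its gene. A single lmFit and eBayes model held all 8 arrays and left 4 residual degrees of freedom, and p-values were adjusted over 8183 genes. Code was tested on simulated data. Tables were made in Python 3.11.15.

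Members and lists were chosen with earlier results of these data known. Named genes are the 8 steepest called changes each way against control whose arrays do not overlap (at 24 h the 3 of smallest adjusted p), the 4 steepest between times, genes of known role, up to 4 machinery genes, neighbours called together, genes near the detection limit, genes whose detected probes were called in opposite directions (0 were found) and genes undetected in 1 group. Others named, which are the remaining called genes, the genes called higher at 6 h with the block, the genes of the machinery and of other families that were called, with or without the block and the pairs of probes, were chosen after their values were seen.

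The labels say that the time course was repeated, and for each pair of groups the gap between replicates a and b was correlated across genes (0.194 to 0.443), so that the letters were taken to pair the arrays. Blocked values are printed beside calls that they altered and beside counts that they moved by over 1.5 times. The alternatives were that block, median scaling, the authors' table, another offset, 2 stricter detection filters and none, every probe fitted by itself, and each array left out. Domains of the proteins, and other genes with zinc finger domains, were not analysed here.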

Additional observations from a re-analysis of the deposited data

Results flagged for a closer look

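Differences between HGF times were singled out because the effects at the 2 times differed in limma's test of the difference itself, with adjusted p under 0.05. At 6 h against 1 h, the log2 difference was 1.48 for Zfp94, 1.20 for Zfp60 and 0.82 for Zfp82, and Zfp846, undetected at 1 h, was at least 1.55-fold higher at 6 h. It was -0.95 for Zfp810, -0.80 for Zfp704 and -0.71 for Zfp655, and Zfp619, undetected at 6 h, was at least 2.01-fold lower at 6 h.

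At 24 h against 6 h, it was 1.13 for Zfp30, 0.66 for Zfp628, 0.63 for Zfp420 and 0.62 for Zfp598, and -1.04 for Zfp367, -0.85 for Zfp280c and -0.52 for Zfp597. At 24 h against 1 h, it was 1.51 for Zfp94, 1.29 for Zfp30, 1.11 for Zfp12 and 1.01 for Zfp46, and -1.88 for Zfp948, -1.18 for Zfp593, -1.02 for Zfp619 and -0.76 for Zfp263. The 3 comparisons share arrays, and the steepest changes were picked from the genes called.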

How the results depend on the processing

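Under the settings that keep 1 probe a gene, 0 of 43 named changes that were called turned direction, while 28 of 81 that were not called did so under at least 1 setting, on leaving out an array or with median scaling. The 0 was largely fixed in advance. Called Zfp genes were named against control only where their arrays did not overlap, so leaving out an array could not turn them. The block leaves each log2 change as it was. The 0 is therefore no test of how firm these changes are. Named genes were not refitted one by one with every probe. There, the other probe of Zfp386 gave -0.09 at 6 h and that of Zfp367 gave 0.01 at 24 h, neither of them called. With the replicate block, counts moved as follows: 33 Zfp genes lower and 4 higher at 1 h, 4 higher at 6 h, 10 lower at 24 h, 22 higher at 6 h against 1 h, 16 higher at 24 h against 1 h, 9 lower at 24 h against 6 h and 53 by the F test. With median scaling, 0 were higher at 1 h, 3 higher at 6 h against 1 h, 4 higher and 3 lower at 24 h against 1 h, and 1 lower at 24 h against 6 h. In the same order, the counts over all 8183 genes were 142, 258, 180, 247 and 209. The Zfp medians became -0.284, -0.261 and -0.160 at 1, 6 and 24 h, while those of all genes became -0.15, -0.16 and -0.09. With no detection filter, Zfp genes that were not detected are tested beside the 158. There, 7 were lower at 1 h, 10 lower at 6 h and 5 lower at 24 h against 1 h, with medians of -0.0881, -0.0615 and -0.0570 at 1, 6 and 24 h. These counts are not set beside the share of all genes. The number higher at 1 h was 3 with the authors' table, with offset 50, with detection p under 0.01 and with detection on all 8 arrays, and 0 with every probe fitted. Of all 8183 genes, 279 were higher at 1 h with the authors' table and 262 with offset 50. The authors' table gave 1 lower at 24 h, and 38 lower among all 8183 genes. The 24 h median was -0.0914 with it, -0.0788 for genes on all 8 arrays and -0.0853 with every probe.

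For the machinery, 2 were lower at 1 h with the block, the authors' table, offset 50, detection p under 0.01 and detection on all 8 arrays. At 24 h 2 were higher with the block and 1 with the authors' table, and at 6 h 2 and, with every probe, 4. For Zbtb genes, the block gave 4 lower at 1 h and 1 lower at 24 h, and median scaling gave 0 higher and 1 lower at 1 h and 0 higher at 6 h. For Zkscan and Zscan genes, 2 were lower at 1 h with the block, the authors' table, offset 50, detection p under 0.01, detection on all 8 arrays and every probe, 1 lower at 24 h with the block, and at 6 h 5 with the block, 4 with the authors' table or every probe and 1 with no filter.

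Leaving out each array in turn gave 0 to 11 Zfp genes lower and 0 to 1 higher at 1 h, 5 to 13 lower and 0 to 1 higher at 6 h, and 0 each way at 24 h. Between times it gave 2 to 11 higher and 4 to 7 lower at 6 h against 1 h, 0 to 5 and 1 to 3 at 24 h against 6 h, 3 to 10 and 0 to 8 at 24 h against 1 h, and 17 to 24 by the F test. Medians ran from -0.243 to -0.180 at 1 h, -0.173 to -0.0261 at 6 h and -0.130 to -0.0615 at 24 h. The machinery gave 1 to 2 lower and 1 higher at 6 h. Zbtb genes gave 0 higher and 0 to 2 lower at 1 h and 0 to 1 each way at 6 h, and Zkscan and Zscan genes 0 to 1 lower at 1 h and 0 to 4 at 6 h. A group left with 1 array is assumed to vary like the others, and these counts are not set beside those over all genes. The causes were not tested. Signal limits the dim genes, which make up 70 of the 158, since their changes are understated and 28 were not detected on every array.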
